A study of Mus musculus with 101 samples.

Results

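The 2-cell stage regions are the 86 target regions, of 868 in a capture panel, that carry the authors' category name for genes of the 2-cell embryo. All 86 rows with that category name were taken, with the 219 of 7917 individually measured CpGs that lie in them. Methylation came from EM-seq, an enzymatic method that converts unmethylated cytosines without bisulfite, on DNA enriched for the panel by hybrid capture. The material was genomic DNA of mouse embryonic stem cells from Diversity Outbred stock, an outbred population bred from several inbred founder strains, so each line has its own mix of founder alleles. All lines shared 1 culture condition, serum with LIF plus 2i, in which inhibitors of 2 kinases keep cells naive, that is close to the pluripotent cells of the blastocyst. The deposited tables have 85 columns, each treated as a line, of which 28 have names that begin with B1, 18 with B2, 20 with B3A and 19 with B3B. Of the B1 columns 2 have the same name but for a final N, and the labels do not say whether they are 1 line. Their r over the tested regions was 0.967. No r of other pairs of columns is given beside it, so this value cannot decide that. The sources used here do not say what the prefixes mean, or the sex and passage of the lines.

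In the mouse embryo the genome is first switched on broadly at the 2-cell stage, and the genes active then include many young families that lie in tandem arrays. The homeobox factor Dux activates a large part of this programme, among it the Zscan4 genes, the Usp17l deubiquitinases and the Tcstv genes. A small and changing minority of mouse embryonic stem cells re-enters a comparable state in culture. CpG methylation at promoters is one of the marks linked to silencing, and naive culture with 2i is known to lower methylation genome-wide, to different depths in different lines.

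The sequences shown here set the promoters of methylated and unmethylated regions side by side, and then those of copies of 1 family. Each is the stretch of 250 bases before the gene start, from RefSeq promoters of assembly GRCm38.p6, read 5′ to 3′ on the gene's strand, with each CpG in capitals. Cacna1s encodes a calcium channel subunit of skeletal muscle (chromosome 1, 136052561 to 136052810, plus strand), and its region was methylated at 35.4% ± 19.3 (SD, n = 84 lines). Lmx1a encodes a LIM homeobox factor (chromosome 1, 167689308 to 167689557, plus strand), and its region stood at 0.573% ± 0.481 (SD, n = 84). Fam124a (chromosome 14, 62555487 to 62555736, plus strand) had the lowest mean of the category, 0.452% ± 0.581 (SD, n = 85).
Cacna1s: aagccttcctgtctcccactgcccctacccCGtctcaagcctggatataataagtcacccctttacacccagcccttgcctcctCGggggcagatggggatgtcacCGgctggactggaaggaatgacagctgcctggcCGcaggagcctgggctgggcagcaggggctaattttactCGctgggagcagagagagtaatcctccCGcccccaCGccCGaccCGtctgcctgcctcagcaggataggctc
Lmx1a: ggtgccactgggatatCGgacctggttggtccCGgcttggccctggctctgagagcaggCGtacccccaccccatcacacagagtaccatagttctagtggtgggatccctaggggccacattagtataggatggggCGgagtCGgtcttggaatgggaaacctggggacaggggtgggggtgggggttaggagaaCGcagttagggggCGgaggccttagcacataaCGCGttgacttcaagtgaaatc
Fam124a: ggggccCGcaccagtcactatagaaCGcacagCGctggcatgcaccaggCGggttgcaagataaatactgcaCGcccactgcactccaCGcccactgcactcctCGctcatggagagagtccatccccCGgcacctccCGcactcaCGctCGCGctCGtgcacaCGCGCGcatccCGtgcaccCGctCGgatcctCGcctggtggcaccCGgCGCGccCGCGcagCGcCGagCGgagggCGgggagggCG
The stretches before Cacna1s and Lmx1a hold 9 CpGs each and that before Fam124a holds 30.

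Zscan4 genes encode zinc finger proteins of the 2-cell embryo that act on telomeres. Their promoters are shown because the copies resemble each other and differ in CpGs. Zscan4b (chromosome 7, 10905051 to 10905300, minus strand), Zscan4c (11005495 to 11005744, plus), Zscan4d (11166149 to 11166398, minus) and Zscan4f (11397665 to 11397914, plus) lie in 1 array.
Zscan4b: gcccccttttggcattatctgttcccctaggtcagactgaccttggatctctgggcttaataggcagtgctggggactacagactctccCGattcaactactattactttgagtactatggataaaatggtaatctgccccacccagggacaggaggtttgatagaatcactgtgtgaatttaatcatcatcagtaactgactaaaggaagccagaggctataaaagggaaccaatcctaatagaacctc
Zscan4c: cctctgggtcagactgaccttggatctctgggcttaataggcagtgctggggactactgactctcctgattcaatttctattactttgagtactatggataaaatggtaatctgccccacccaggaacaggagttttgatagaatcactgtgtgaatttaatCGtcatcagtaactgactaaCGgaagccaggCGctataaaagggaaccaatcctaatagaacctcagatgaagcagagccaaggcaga
Zscan4d: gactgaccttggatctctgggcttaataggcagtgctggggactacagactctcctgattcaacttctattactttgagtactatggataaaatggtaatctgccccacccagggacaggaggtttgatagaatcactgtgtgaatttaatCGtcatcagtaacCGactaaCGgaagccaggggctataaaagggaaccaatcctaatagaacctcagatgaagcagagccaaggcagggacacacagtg
Zscan4f: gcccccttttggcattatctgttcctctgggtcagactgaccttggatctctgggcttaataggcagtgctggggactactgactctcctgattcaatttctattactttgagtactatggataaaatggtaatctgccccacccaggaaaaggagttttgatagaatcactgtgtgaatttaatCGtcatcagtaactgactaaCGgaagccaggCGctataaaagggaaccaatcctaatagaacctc
The stretches start at different offsets in the copies, so identity was counted over the bases that an alignment paired, without the overhanging ends. It was 99.6% over 227 paired bases for Zscan4c and Zscan4f, 97.1% over 239 for Zscan4c and Zscan4d, 96.8% over 216 for Zscan4d and Zscan4f, and 94.8% over 250 for Zscan4b and Zscan4f. The longest run with a CpG that Zscan4c, Zscan4d and Zscan4f share is 41 bases long, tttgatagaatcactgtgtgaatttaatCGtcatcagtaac, and these were the only 3 of 32851 RefSeq promoter windows that held it on either strand. The closest run in Zscan4b differs from it at 1 base, G30A, counted from the first base of the run, and that change removes the CpG. Zscan4b has 1 CpG in its 250 bases and the other three have 3 each.

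The Usp17l genes encode deubiquitinases. Usp17la (chromosome 7, 104856766 to 104857015, plus strand) had a value in 81 lines, and Usp17ld (103252506 to 103252755, minus strand) had none in any line.
Usp17la: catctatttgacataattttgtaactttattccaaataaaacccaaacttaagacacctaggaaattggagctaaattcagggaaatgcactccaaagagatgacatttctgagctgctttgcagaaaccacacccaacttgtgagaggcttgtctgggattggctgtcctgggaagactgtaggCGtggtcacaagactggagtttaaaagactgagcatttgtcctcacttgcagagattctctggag
Usp17ld: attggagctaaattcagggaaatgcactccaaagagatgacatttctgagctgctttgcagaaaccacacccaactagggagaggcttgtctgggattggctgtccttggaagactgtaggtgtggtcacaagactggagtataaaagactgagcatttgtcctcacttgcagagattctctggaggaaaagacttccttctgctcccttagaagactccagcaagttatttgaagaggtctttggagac
Usp17la and its neighbour Usp17lb share a run of 47 bases with a CpG, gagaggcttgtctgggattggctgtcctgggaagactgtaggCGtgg, which no other RefSeq promoter window held. The closest run of Usp17ld differs from it at 2 bases, G29T and C43T, and the second change removes the CpG. The stretch of Usp17ld holds no CpG at all.

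A methylation value was present in at least 80% of lines, that is in 68 or more, at 46 of the 86 regions, which are called the measured regions from here on. A further 17 had a value in 6 to 62 lines, and 23 had none in any line. Those 23 were the only regions of the panel without any value. In the other categories 41 of 782 regions, 5.24%, fell short of 80% of lines, against 46.5% of the 2-cell stage regions. Of the 23 empty regions, 6 form an array on chromosome 2 in which region starts lie 5810 bases apart, with 1 step of 11620, and 6 lie on contigs that are not placed on a chromosome. The others include Tmem92, a gene of the 2-cell stage programme, Usp17ld, Tdpoz8, and B020031M17Rik and AF067061 of the chromosome 13 cluster.

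The missing values fell on the tandem families (the plot of lines per copy). Members closer than 100 kb to another member made up 15 of the 23 empty regions, 11 of the 17 partly filled ones and 13 of the 46 measured ones. Of the 5 Zscan4 regions only Zscan4d was measured, in 73 lines, while Zscan4c had a value in 47, Zscan4e in 44, Zscan4f in 41 and Zscan4b in 15. The chromosome 13 cluster spans 119829966 to 120300641 and holds Tcstv1, a gene of the 2-cell-stage variable group. It had 2 measured members of 7, AF067063 in 69 lines and BC147527 in 84. The chromosome 3 cluster holds BTB-domain genes of the Tdpoz and Spopfm families between 93825769 and 94264285. Tdpoz3 had a value in all 85 lines there, Gm9113 in 26, Spopfm2 in 13 and Spopfm1 in 6. All 5 regions named for a Pramel gene, leucine-rich-repeat genes of germ cells and early embryos, were measured, and so were both regions at Dux. Gm13057, which shares promoter sequence with Pramel20 but does not carry the family name, had no value in any line.

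**Figure D1:**
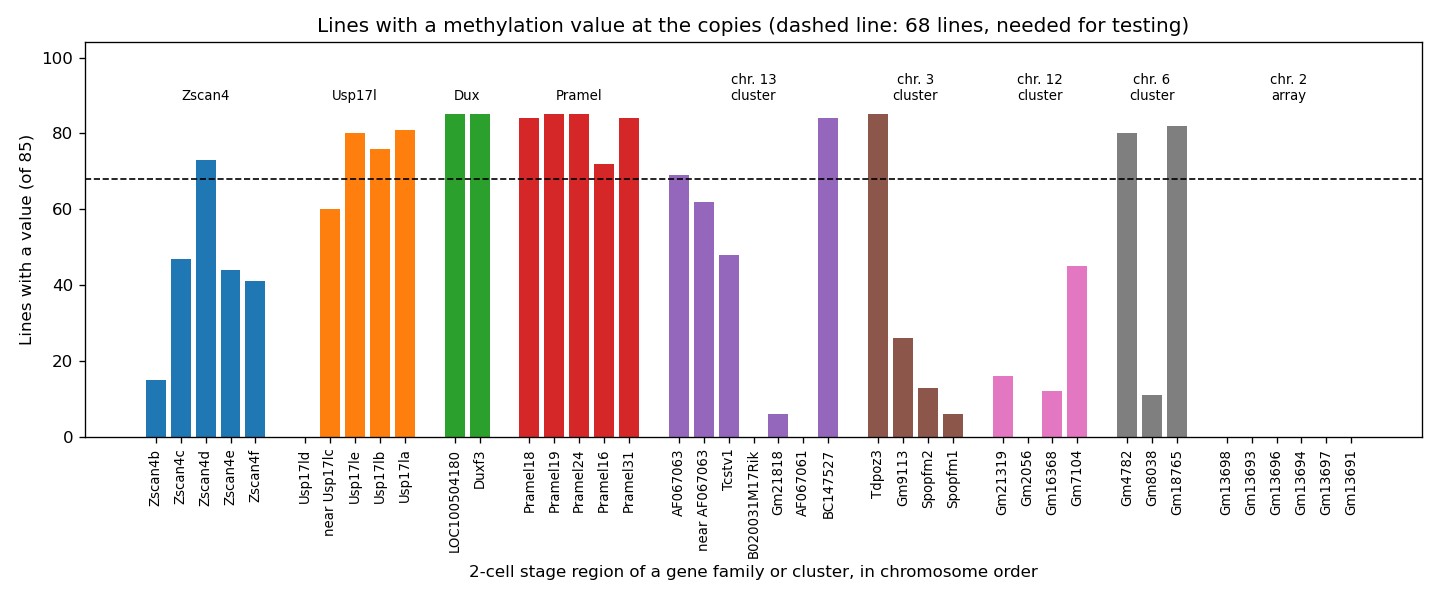
Number of lines, of 85, with a methylation value (y axis) at each 2-cell stage region of a gene family or cluster, in chromosome order; bars are coloured by family and the dashed line marks 68 lines. Within the Zscan4 array the count runs from 15 to 73, and the chromosome 2 array has none.

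Lines named by 2 titles in the labels, 1 with and 1 without the suffix WA, had values at more of these regions. The 16 such lines had a value at 58.4 ± 1.45 of the 86 regions (SD) and the other 69 lines at 49.3 ± 5.75, and their mean methylation over the measured regions of other categories was 23.4% ± 12.1 against 17.4% ± 8.93. At all 17 partly filled regions the share of lines with a value was higher among the 16, with a median of 93.8% against 39.1%. Zscan4c, Zscan4e and the region near Usp17lc had a value in all 16 of them. Whether their columns combine 2 libraries is not stated, and read depth is not in the tables.

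The promoter windows of copies overlapped in sequence. Each window, 250 bases before to 50 after the start, was cut into words of 30 bases, and each word was looked up in the windows of all other RefSeq genes on both strands. Zscan4f shared 80.4% of its words with other genes, Zscan4c 77.1%, Zscan4d 63.1% and Zscan4b 52.8%, in each case with other Zscan4 genes only. Gm13057, which had no value, shared 100% of its words, and among the genes with the same words was Pramel20. Of 22 measured regions with a window, 6 shared any word, with a median of 0% of words. Of the 6 partly filled regions with a window 4 did, with a median of 26.9%, and of the 5 empty ones all did, with a median of 9.59%. The windows of those 5 held 0 to 3 CpGs, a range that 10 of the measured regions also fell in. Whether repeated sequence, low CpG number or the capture left these regions without values was not tested.

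The measured regions fell into a methylated and a nearly unmethylated set (the plot of all lines). At 11 of the 46 the mean over lines was below 5%, from 0.452% at Fam124a to 4.07% at the region nearest to Fth-ps3, and at the other 35 it ran from 9.54% at Hdc to 60.9% at Gm6189. The boundary of 5% was set after the values were seen, so the sets are described and not tested. The median of the 46 means was 29.7%, against 15% for the 741 measured regions of the other categories. A mean below 5% was found at 23.9% of the measured 2-cell stage regions and 27.3% of the others, and a mean of 30% or more at 47.8% and 27.5%.

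**Figure D2:**
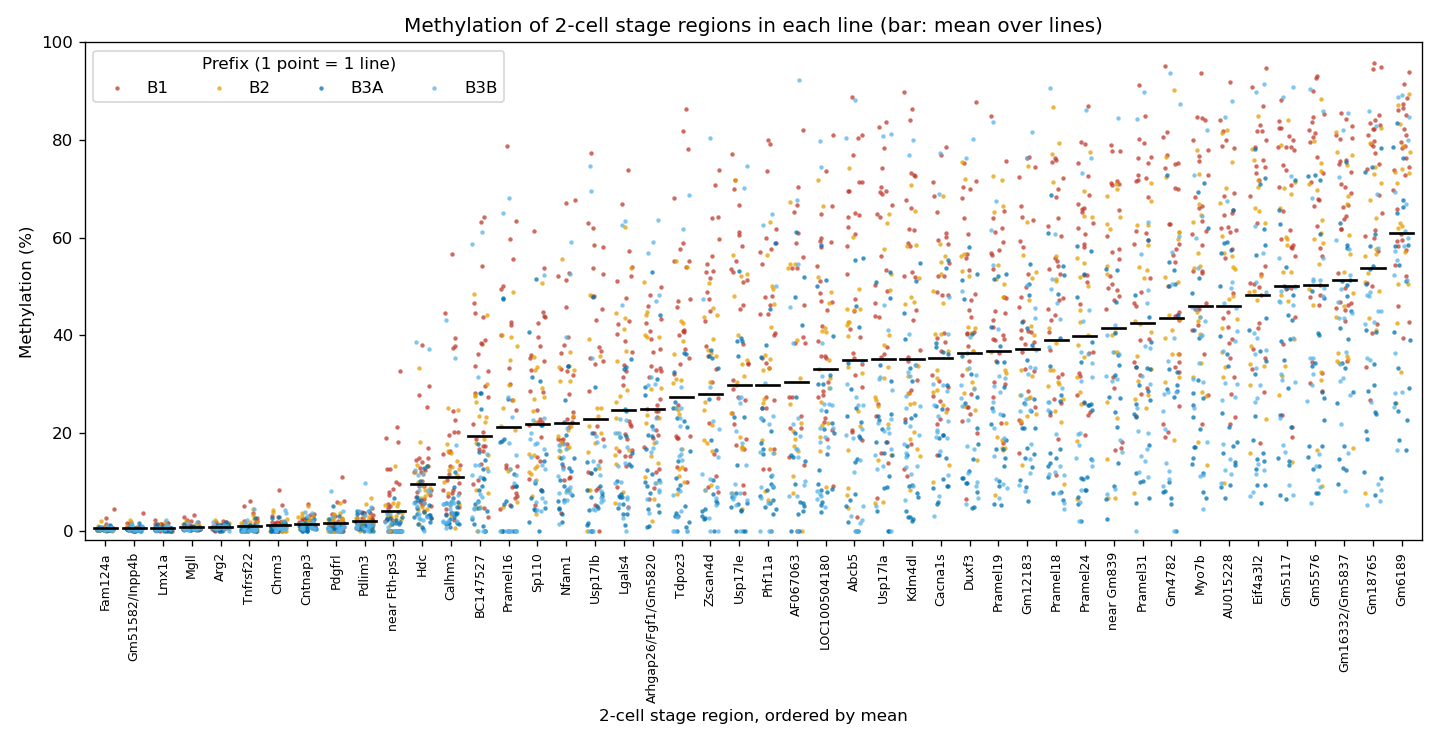
Methylation in percent (y axis) of each of the 46 measured 2-cell stage regions (x axis, ordered by mean) in each line; 1 point is 1 line, coloured by prefix, and bars are means over lines. The 11 regions on the left have means up to 4.07%, and most regions on the right span nearly the whole scale, with B1 lines towards the top.

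The measured regions at genes of a 2-cell programme list lay in the methylated set. Of a list of 40 genes and regulators of that programme, 14 had a target region, all in this category, and 7 of those were measured. All 7 were in the methylated set, which holds 35 of the 46 measured regions. Zscan4d ranged from 0% over a median of 26.3% to 80.5% in 73 lines, and in 12 lines it exceeded 50%. Duxf3, a Dux gene, ranged from 4.56% over 33.3% to 87.7% in 85 lines. The neighbouring LOC100504180, whose region lies 6583 bases away, ranged from 3.87% over 29.2% to 81.1%. Sp110, a nuclear body protein gene, had a mean of 21.8% ± 14.4 (SD, n = 77).

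Copies of a family and members of a cluster could differ in level within the same line. Usp17la was higher than Usp17lb in 67 of the 74 lines with both values, by 12.8 ± 11.1 points (SD), with means of 35.6% and 22.9%. Usp17le, the third measured copy, had a mean of 29.7% ± 21.6 (SD, n = 80). Duxf3 exceeded LOC100504180 in 73 of 85 lines, by 3.43 ± 3.87 points, with means of 36.4% and 33%. In the Zscan4 array the mean differences over the 10 pairs of copies ran from -7.88 to 5.59 points. The lowest was Zscan4b minus Zscan4e, over 14 lines, and the highest Zscan4e minus Zscan4f, over 31 lines. Each was smaller than the SD of that difference over lines, as was that of Duxf3 and LOC100504180. Whether the copies differ was not tested. Zscan4d and Zscan4f, the pair closest in mean, differed by 0.102 ± 9.07 points over 39 lines, with Zscan4d higher in 19. Tdpoz3 was below Gm9113 in all 26 lines with both values, by 17.3 ± 9.46 points, with means of 26.6% and 43.8%. Tcstv1 was higher than BC147527 in 43 of 48 lines, by 15.5 ± 11.9 points, with means of 35.9% and 20.4%. The pairs with Tdpoz3 and Tcstv1 come from clusters grouped by position, and whether their members are copies was not tested. Reads that map to more than 1 copy can move values between copies, and how such reads were counted is not stated.

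The 17 partly filled regions belonged to the methylated set as well, with means from 15.6% to 54.0%. Their means come from part of the lines, and at 16 of the 17 the lines with a value had a higher overall methylation than the lines without. Among the copies, Zscan4c had a mean of 31% ± 21.7 (SD, n = 47), Zscan4e 33.1% ± 23 (n = 44), Zscan4f 31.9% ± 20.4 (n = 41) and Zscan4b 35.8% ± 16.1 (n = 15).

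The highest means belonged to pseudogenes. Gm6189 stood at 60.9% ± 20.8 (SD, n = 83) and ranged from 16.5% to 93.9%, with 63 lines above 50%. Gm18765 stood at 53.8% ± 24.3 (n = 82), the region overlapping Gm16332 and Gm5837 at 51.3% ± 20.6 (n = 85), Gm5576 at 50.2% ± 25.2 (n = 83) and Gm5117 at 50.2% ± 22.8 (n = 85). The spread between lines was widest at Gm5576, followed by Eif4a3l2 at 48.3% ± 24.7 (n = 85), Abcb5, a transporter gene, at 35% ± 24.4 (n = 83), Gm18765, and Gm4782 at 43.6% ± 23.7 (n = 80). Among the Pramel genes the mean ran from 21.1% ± 20.1 (n = 72) at Pramel16 to 42.6% ± 22.7 (n = 84) at Pramel31.

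Single genes of the methylated set covered the same span. Hdc, which makes histamine from histidine, was the lowest at 9.54% ± 8.28 (SD, n = 85), and 26 of its lines lay below 5%. The galectin gene Lgals4 stood at 24.7% ± 17.7 (n = 85) and the PHD finger gene Phf11a at 29.8% ± 20.9 (n = 82). Myo7b, a myosin of the intestinal brush border, had a median of 45.3% and ranged from 4.50% to 93.7% in 85 lines. AU015228 ranged from 6.75% to 92% and Gm12183 from 6.06% to 81.6%. At 15 of the 35 methylated regions the lowest line stood at 0%. These genes were added to those chosen by rule, with their values known.

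Of the 46 measured regions, 34 overlapped a protein-coding gene, most of them in the methylated set. The nearly unmethylated set lay at protein-coding genes, except for the region nearest to Fth-ps3, which overlapped no gene. Besides Fam124a and Lmx1a it held the region where Inpp4b, a phosphoinositide phosphatase, and Gm51582 start, at 0.523% ± 0.552 (SD, n = 85). Mgll, a monoglyceride lipase, stood at 0.662% ± 0.580 (n = 85) and Arg2, a mitochondrial arginase, at 0.715% ± 0.470 (n = 85). Tnfrsf22, Chrm3, Cntnap3, Pdgfrl and Pdlim3 followed, with means from 0.933% to 1.93%. At Fam124a, Inpp4b, Lmx1a, Mgll and Arg2 every line was below 5%. The region nearest to Fth-ps3 was the least uniform, with 53 of its 71 lines below 5% and a highest value of 32.8%. Regions at 3 naive pluripotency genes, used as a check of the cell label, were as low, with means of 0.360% at Nanog, 0.792% at Zfp42 and 0.191% at Tbx3, while Dppa3 had a value in 64 lines, with a mean of 6.26%. Methylation gives no expression, so this check is limited.

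Among the 22 measured regions with a promoter window, the number of CpGs in it separated the sets (the plot of methylation against CpG number). The cut between 10 and 11 CpGs lies where the sets part, so the separation is described and not tested. In the 250 bases before the start alone, Cacna1s and Lmx1a hold 9 CpGs each and are not separated. All 7 measured regions whose window held 11 or more CpGs had means below 2%, from 0.452% at Fam124a, with 40 CpGs, to 1.93% at Pdlim3, with 15. All 15 regions whose window held 10 or fewer had means of 9.54% or more, with a median of 28%. Where windows of more than 1 gene lay at a region, the highest number was taken. The Nfam1 region, with a mean of 22.1%, has 10 from the window of Gm32620, while that of Nfam1 itself holds 5 CpGs. Cacna1s, with 9 CpGs, had a mean of 35.4%. Chrm3 and Cntnap3, with 11 each, had means of 1.14% and 1.43%. In the other categories the same cut did not divide the regions in this way. A mean below 5% was found at 35.6% of 118 regions with 11 or more CpGs and at 18.4% of 49 with fewer. Such a mean was more frequent at the highest CpG numbers there too, at 61.9% of 42 regions with 21 to 60 and 21.1% of 76 with 11 to 20. Over all RefSeq promoter windows the median was 7 CpGs, and 41.4% held 11 or more. Only 22 of the 46 measured regions had a window that overlapped them by 150 bases or more.

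**Figure D3:**
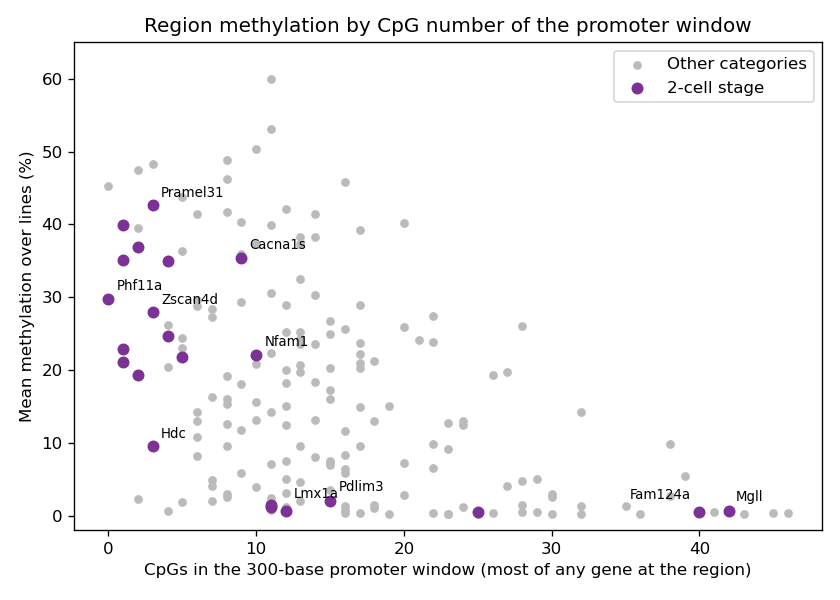
Mean methylation over lines in percent (y axis) against the number of CpGs in the RefSeq promoter window (x axis). The number is the highest of any gene at the region. Measured regions with such a window are shown, with 22 2-cell stage regions in purple and 167 regions of other categories in grey. Purple points with 11 or more CpGs lie below 2% and those with 10 or fewer at 9.54% or higher, while grey points overlap.

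The single CpGs followed the division with 6 exceptions (the CpG profiles). Of the 219 CpGs in the deposited CpG table, 149 lay in regions of the nearly unmethylated set, 50 of them at Mgll and 40 at Fam124a, and 147 of the 149 had means below 5%. The exceptions there were the only CpG of Pdlim3, at 8.71%, and 1 of Cntnap3. Of the 70 CpGs in methylated regions 4 had means below 5%, 3 at Calhm3 and 1 at Hdc, at 4.97%. CpG means at Mgll ran from 0.0193% to 0.952% and at Fam124a from 0.0693% to 1.31%. Cntnap3 was lowest in its middle, and its highest CpG mean, 5.10%, stood 209 bases before the region centre in chromosome direction.

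In the methylated set neighbouring CpGs differed in level and varied together between lines. At Eif4a3l2 the 10 CpG means ran from 30.04% to 53.9%, with a mean pairwise r of 0.920 over the 85 lines. At LOC100504180 the 10 CpG means ran from 19.4% to 43.2%, with r = 0.923. Nfam1 had a range from 12.3% to 30.6% over 11 CpGs, with r = 0.841. Calhm3, annotated as a pseudogene of a calcium homeostasis modulator, had 3 CpGs below 5% between 90 and 44 bases before the region centre, the lowest at 1.10%, with 18.6% at 136 bases before the centre and 15.2% at 13 bases before it. These correlations are over the same lines and libraries, and no p is given. At Mgll and Fam124a, where all CpGs were near 0, the mean pairwise r was 0.104 and 0.179.

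**Figure D4:**
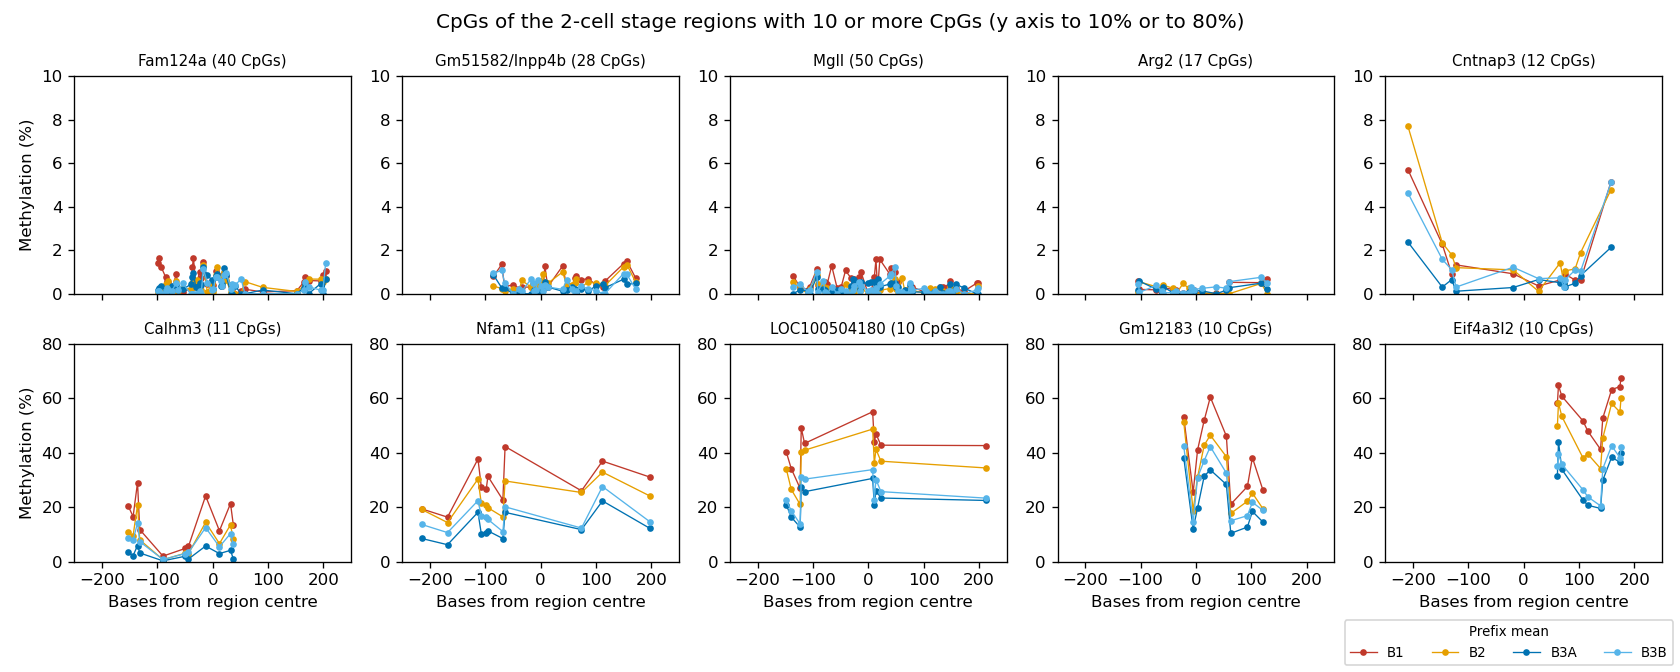
Mean methylation in percent (y axis, to 10% in the upper row and to 80% in the lower) of each CpG against its distance in bases from the region centre (x axis), for the 10 regions with 10 or more CpGs; lines join the means of the B1, B2, B3A and B3B lines. Cntnap3 rises at both ends, Calhm3 dips between 90 and 44 bases before its centre, and B1 lies above B3A at each CpG of the lower row.

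The methylated set followed the overall methylation of each line (the plot against the line level). The line level is the mean of the 741 measured regions of other categories, and it had a mean of 18.5% with a range from 2.95% to 42.8% over lines. The mean of the 35 regions exceeded it in all 85 lines, by 16.3 ± 9.05 points (SD), and ran from 5.24% to 77.6%. The 35 were chosen by a mean above 5%, while 202 of the 741 had a mean below 5%. An excess is thus partly built in by the choice. The r of the 35 regions with the line level ran from 0.811 to 0.978, with a median of 0.927. Their slopes ran from 0.703 to 2.41 points per point, with a median of 1.91. Cacna1s had r = 0.978, LOC100504180 0.974 and Duxf3 0.962. For the region set as a whole the median r was 0.900, against 0.872 for the other regions. The median slope of those 741 was 0.947, with the 202 below 5% among them, so it does not compare directly with the 1.91.

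Regions of other categories at the same level give the scale for these slopes. Between 20% and 40% mean methylation, 21 of the 2-cell stage regions had a median slope of 1.90 and a median r of 0.927, and 226 other regions had 1.69 and 0.944. Between 40% and 65%, 11 of them had 2.13 and 0.929, and 85 others 2.07 and 0.949. The nearly unmethylated set moved with the line level over a smaller range, and its mean per line ran from 0.190% to 5.40%. Its median r was 0.570, against 0.524 for 202 other regions below 5%, and its median slope 0.0686 points per point, against 0.0731. The lowest r were 0.0351 at Fam124a, 0.354 at Arg2 and 0.450 at Pdgfrl, and the highest was 0.681.

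**Figure D5:**
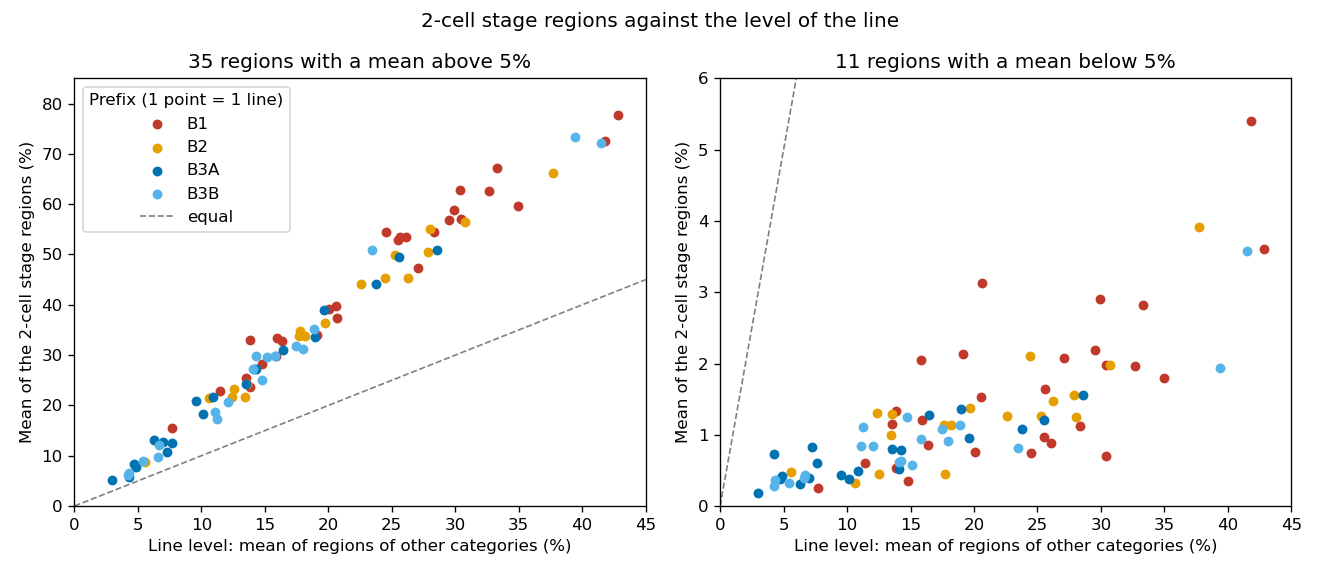
Mean methylation in percent of the 35 methylated (left) and 11 nearly unmethylated (right) 2-cell stage regions (y axes, different scales) against the line level in percent (x axis); 1 point is 1 line, coloured by prefix, and the dashed line marks equality. On the left, for regions chosen by a mean above 5%, the points run from 5.24% to 77.6% along a narrow band above the dashed line. On the right all lie at or below 5.40%.

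Once the line level was accounted for, pairs of regions had on average little in common. Pairs of measured regions on different chromosomes had a mean r of 0.665 over 964 pairs, and 0.0129, with a range from -0.452 to 0.743, after the part that follows the line level was removed. For 6 pairs closer than 100 kb the values were 0.881 and 0.297. The closest pair, Duxf3 and LOC100504180, kept r = 0.741, Pramel18 and Pramel19 kept 0.387, and Usp17le and Usp17la kept 0.00677. Near-identical copies can share reads, and the pairs share libraries, so these values are descriptions.

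Between prefixes, the methylated regions were highest in B1 lines and mostly lowest in B3A lines. The moderated F test of limma over the 4 prefixes, on log2 odds with Benjamini-Hochberg adjustment over 787 regions at 0.05, called 37 of the 46 measured regions, or 80.4%, against 81.7% of all regions tested. The share lies near that of the panel. All 35 regions of the methylated set were called, where 94.4% of all 574 regions above 5% were, and 2 of 11 in the other set, or 18.2%, Cntnap3 and the region nearest to Fth-ps3, where 47.4% of all 213 regions below 5% were. Of the 37, the highest mean was in B1 at 36 and the lowest in B3A at 34. Over all regions tested, the limma contrast called B1 above B3A at 85.3% and B3A above B1 at none. The mean of the 35 regions per line was 45.9% ± 16.5 (SD, n = 28) in B1, 37.4% ± 15.3 (n = 18) in B2, 23.2% ± 14.4 (n = 20) in B3A and 28.2% ± 19.4 (n = 19) in B3B, while the line level was 23.8%, 20.2%, 12.5% and 15.5%.

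Tdpoz3 (region at chromosome 3, 93825769 to 93826269 in mm10, overlapping the gene) had the smallest p. Its lowest, median and highest values were 10%, 40.7% and 86.4% in 28 B1 lines, 7.46%, 27.6% and 55.2% in 18 B2 lines, 0%, 12.5% and 36.4% in 20 B3A lines and 0%, 15.3% and 68.8% in 19 B3B lines. The prefixes overlapped, and the B1 median lay above every B3A line. The adjusted limma p was 7.52e-05.

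Zscan4d (chromosome 7, 11165909 to 11166409, across the gene start) had medians of 46.2% in 24 B1 lines, with a range from 7.97% to 73.9%, and of 7.51% in 17 B3A lines, with a range from 0% to 37%. B2 lines had a median of 30.5% and B3B lines of 10.6%, but 1 B3B line held the highest value of all, 80.5%. The adjusted limma p was 0.000102, and it was 0.000102 also at Kdm4dl, which resembles a histone demethylase gene and is annotated as a pseudogene, and at Calhm3. Kdm4dl had medians of 52.0%, 32.7%, 16.3% and 21.4% in B1, B2, B3A and B3B. Calhm3 had medians of 13.3%, 11.9%, 3.51% and 5.35%, and its highest B3A line stood at 12% against 56.6% in B1.

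Gm18765 (chromosome 6, 50628089 to 50628589) had medians of 76.1%, 57.2%, 37.4% and 43.9% in B1, B2, B3A and B3B, with an adjusted limma p of 0.000109. Duxf3 (chromosome 10, 58231763 to 58232263) had medians of 44.4%, 38.6%, 19.3% and 27.1%, with an adjusted limma p of 0.000571, and its B1 lines from 6.45% to 87.7% overlapped the B3A lines from 4.56% to 58.0%. Cntnap3 differed at a low level, with medians of 1.11%, 1.80%, 0.598% and 1.23% and an adjusted limma p of 0.00129. Fam124a and Arg2 were not called, with adjusted limma p of 0.469 and 0.931.

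In the contrast of B1 with B3A, the pair of prefixes farthest apart in earlier results on these data, B1 was higher at 40 of the 46 regions, or 87.0%, against 85.3% of all regions, and B3A at none. The median difference was 1.67 in log2 odds over the 46 regions and 1.21 over all regions. It was 2.53 ± 0.50 (SE) at Zscan4d, 2.50 ± 0.49 at Tdpoz3 and 1.63 ± 0.39 at Duxf3, with adjusted limma p of 3.74e-05, 3.47e-05 and 0.000216. Except for Pramel16, with 1.47 ± 0.72 and an adjusted limma p of 0.0541, every region of the methylated set was called, which gives 34, with 6 of the 11 in the other set. When each line was centred on its own level, B1 was higher at 26 regions, all of the methylated set, and B3A at 10, all of the nearly unmethylated set, and over the panel the shares were 28.8% and 26%. In the nearly unmethylated set the direction follows from the centring itself. A region near 0 in all lines becomes higher in lines of a low level once that level is subtracted. What sets the direction at the 26 methylated regions was not tested.

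For the centring and for the covariate, the line level was the mean log2 odds, not the mean percent, of the 741 measured regions of other categories. With this level as a covariate, the limma F test called none of the 46 regions and 3.18% of all regions. Of the 46, 7, or 15.2%, had an unadjusted p under 0.05, against 22.7% of all regions. The smallest adjusted p was 0.0535, at Tdpoz3. Zscan4d then differed between B1 and B3A by 0.37 ± 0.26 in log2 odds, with an adjusted limma p of 0.57, and Duxf3 by -0.13 ± 0.14, with 0.729. Of the single CpGs, the limma F test called 70 of 219, against 45.2% of all CpGs. They were 61 of the 70 CpGs in methylated regions and 9 of the 149 in the nearly unmethylated ones. In the methylated regions the mean was highest in B1 at all 70, and the same count over all CpGs was not made.

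Column names with a final N, which the labels do not explain, were unevenly spread over the prefixes, 6 of 28 in B1, 0 of 18 in B2, 16 of 20 in B3A and 9 of 19 in B3B. The order of B1 above B3A was present in both kinds of column. The mean of the 35 regions was 52.6% ± 10.3 (SD, n = 6) in B1 and 25.5% ± 14.8 (n = 16) in B3A among columns with the N, and 44.1% ± 17.6 (n = 22) and 14.1% ± 8.70 (n = 4) among those without. Among columns with the N, the limma F test over B1, B3A and B3B called none of the 46 regions and 0.254% of all regions, with an unadjusted p under 0.05 at 24 of the 46, or 52.2%, and at 33.5% of all regions. The contrast of B1 with B3A called 21 of the 46 there, and 28% of all regions.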

How the data were processed

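EM-seq libraries of 85 lines were compared by the prefix of the line name. The authors deposited average methylation fractions for 868 regions and fractions for 7917 CpGs, with a coverage filter of 10 named in the titles of those tables. Trim Galore 0.6.4, Bismark, Bowtie2 and mm10 were used per the submitters' processing notes, with settings that the sources used here do not give. Read counts are absent from both tables, which leaves depth unknown and allows no counting interval. Fractions are shown as percent. Of 85 columns, 44 matched 1 title by name, and 41 were used by prefix only. Nothing says that columns are separate cultures, so p-values measure the spread between columns.

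The 787 regions that had values for 80% of lines or more, 46 of them 2-cell stage, were converted to log2 odds, log2((f + 0.01)/(1 - f + 0.01)) for a fraction f, and fitted with limma 3.58.1 (R 4.3.3), which was checked on simulated data. Gene names, positions and promoters came from RefSeq, GRCm38.p6, whose CpGs matched all 1542 deposited CpG positions inside promoter windows. Region positions are given as deposited. The table gives no exons, so regions are named by the gene whose promoter window or body they overlap. Genes named with full values are the 5 highest and lowest means, the 5 largest SDs, the 5 smallest F-test p, the 3 lowest r with the line level, and the extremes of families with 3 or more measured members. Members, gene lists and families were chosen with earlier results of these data known. Alternatives varied the offset, the scale, the share of lines, the line level and the columns included.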

Additional observations from a re-analysis of the deposited data

How the results depend on the processing

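The counts of called 2-cell stage regions changed most with the line level and the columns. With the line level as covariate, limma called 0 of the 46 regions in the F test (7 at an unadjusted p under 0.05) and 25 of all 787, 0 in B1 against B3A (2 unadjusted) and 0 of all (100 unadjusted), and 0 of 219 CpGs (18 unadjusted) and 13 of all 7917, and the B1 minus B3A difference turned to -0.13 log2 odds at Duxf3 and -0.16 at Eif4a3l2. Among columns with a final N, it called 0 in the F test (24 unadjusted) and 21 in B1 against B3A, with 2 (264 unadjusted) and 220 of all 787. Regions with a value in every line, of which 22 are 2-cell stage regions, gave 17 and 20 calls, with 516 and 535 of all 621, and the mean of CpGs, also with 22, gave 17 and 18, with 473 and 490 of all 596; fewer regions enter these fits. Offsets of 0.001 and 0.05, fractions in place of log2 odds, other shares of lines, columns without a final N and lines with 1 title left both counts within 1.5 times of the main ones. Of all 787 regions these settings called from 531 to 649 in the F test and from 562 to 669 in the contrast. The other shares of lines called 666 and 695 of all 819, and 676 and 708 of all 835. Centring by line level gave 34 and 36 calls, with 446 and 432 of all 787. Of the 36 only 26 were higher in B1, against 40 of 40 without it. Without the second B1 column of the same name, chosen after seeing the data, the counts were 37 and 42, with 652 and 691 of all 787. Of the 22 regions chosen by rule, 16 lost their F-test call with the covariate and 16 among columns with a final N, centring ended 3 calls and made 6, Gm4782 lost its call without the N columns (adjusted limma p = 0.0517) and Pramel16 on the fraction scale (0.104). The median r with the line level was 0.855 within B1 and between 0.891 and 0.923 within the other prefixes. After the line level was removed, the mean pairwise r was 0.297 under 100 kb, 0.0214 from 100 kb to 2 Mb and 0.0129 between chromosomes. Low values rest on an unknown number of reads. No paired analysis was made, because the labels do not say that a number found under several prefixes marks related lines.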
